A study of Mus musculus with 9 samples.

Results

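The cytosolic ribosome is built from ribosomal RNA and a large set of small, mostly basic proteins, most of them present in a single copy. The mRNAs of these proteins are among the most abundant of any growing cell. The genes described here are the protein-coding genes of a mouse expression table whose symbol starts with Rpl or Rps and a number, together with Rpsa, Rplp0, Rplp1 and Rplp2, without the Rps6k kinases, processed copies named -ps and predicted Gm genes. By that rule 86 of the 54532 genes in the table were members. Of these, 77 encode a subunit protein (31 of the small subunit, 43 of the large subunit and 3 of the P-stalk), and 9 are near copies or other proteins that share the name (Rpl22l1, Rps27l, Rps27rt, Rpl36al, Rpl39l, Rpl3l, Rpl10l, Rpl7l1 and Rps19bp1). RNA sequencing was run on myeloid cells, with white cells named as the source, of C57BL/6 mice of 6 to 8 weeks. The 9 libraries form 3 groups of 3: libraries labelled KO, with the genotype SOCS3 KO, and libraries labelled Gr_1 and fl, both of wild type. The labels name no promoter or Cre for the knockout, do not spell out Gr_1 or fl, and do not say whether libraries came from separate animals, so p-values reflect the spread among these libraries alone, which may be technical except between KO A and KO B. Those differed in sex-linked RNAs, given below, so they did not come from the same animal. Socs3, the inhibitor of cytokine signalling named in the genotype, was not lower in KO: it had 9.23, 6.76 and 8.37 FPKM in KO A, B and C, against 3.87, 4.02 and 3.40 FPKM in fl A, B and C. A level of the whole gene does not show whether part of it was deleted, so the label was not tested. KO is therefore used below as the label of 3 libraries, and every direction drawn from it is that of the libraries labelled KO.

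Members are known by role. The small subunit (Rps genes) decodes the mRNA, the large subunit (Rpl genes) forms the peptide bond and the exit tunnel, and the P-stalk (Rplp0, Rplp1 and Rplp2) recruits the elongation factors. Many of these mRNAs begin with a C and a run of pyrimidines, the 5′ terminal oligopyrimidine (TOP) tract, through which mTOR and Larp1 adjust their translation together. In the granulocyte lineage, ribosome production is known to be high in dividing precursors and to decline as cells mature.

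A start of that kind, C followed by at least 4 more C or T in an annotated coding transcript of GENCODE M21, was found in 23 of 86 members (26.7%) and in 1119 of 21839 protein-coding genes of the table (5.12%). The annotated start can lie off the true one, so a start without such a run says nothing about the mRNA. The members with the longest runs among those printed (Rps24, Rpl32 and Rps2) and 2 that were not called in Gr_1 (Rps9 and Rps27) are shown with their first 20 bases, the run in capitals.
Rps24: CTCTTTTCCTCCTCTCCagc
Rpl32: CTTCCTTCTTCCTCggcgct
Rps2: CTTCTTCTTCTTCgggagaa
Rps9: CTCTTTgtctcgggcctgag
Rps27: CCTTTCCggcggtgacgacc

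One pair of members shared its whole compared sequence. Rps27 (chr3:90212522-90213651, minus strand, GRCm38) and Rps27rt (chr9:114982366-114982739, minus strand) were identical over all 341 compared transcript bases, including the whole coding sequence of 255 bases. The first 60 coding bases are shown for both because a read from this stretch matches both genes. Of the 125-base words of the main transcript, 98.2% of Rps27 and 88.4% of Rps27rt also occur in another annotated gene.
Rps27: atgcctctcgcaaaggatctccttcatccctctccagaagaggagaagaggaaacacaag
Rps27rt: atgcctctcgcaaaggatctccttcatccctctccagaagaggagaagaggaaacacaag

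Levels are FPKM as deposited, fragments per kilobase of exon and per M of a denominator that was recovered for each library. The libraries held between 18.3 and 21.5 M fragments, recovered from the values. The denominator differed from this total, at 16.03 M against 18.96 M in Gr_1 A and 21.74 M against 19.65 M in KO B. It lay below the total in each Gr_1 library and above it in each KO and fl library. The deposited levels thus carry a scaling between libraries beyond their fragment totals. A gene was tested if it reached 1 FPKM in at least 3 libraries (12289 genes). Among the 10 genes with the highest mean were S100a9, S100a8, Ngp, Camp and Lyz2, all known from granulocytes or macrophages. A mean over all 9 libraries does not show that the label of myeloid cells held in each group. Lyz2, which encodes lysozyme, had 53.2, 59.8 and 56.0 FPKM in KO A, B and C, against 8670.3, 8827 and 9998 FPKM in fl A, B and C. KO C carried both the X-inactivation RNA Xist (26.3 FPKM) and Y-linked mRNAs (14.2 FPKM summed over 4 genes). KO A had Xist at 0.00280 and KO B at 58.5 FPKM, while the Y-linked sum was 26.5 FPKM in KO A and 0 in KO B. Every Gr_1 and fl library had Xist at 0.0104 FPKM or less and a Y-linked sum between 16.6 and 39.3 FPKM. Sex was thus uneven between KO and the other groups, and its part in the changes was not tested. In KO C, 73 of the 84 tested members lay between KO A and KO B, as did 61.4% of all tested genes. Whether KO C shares RNA with the other 2 libraries was not tested. Counts of called genes in KO against fl, and of called members in KO against Gr_1, are also given without KO C, and calls of named genes that ended without it are stated.

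Most members were abundant, and together they took a smaller part of the Gr_1 libraries. The mean over the 9 libraries was 100 FPKM or more for 67 of 86 members, and the median of the 84 tested was 205 FPKM. Rplp1, Rplp0 and Rps3a1 were highest, at 1300.0, 819 and 768 FPKM. Rpl10l, Rpl39l and Rpl3l, near copies known from testis (Rpl10l and Rpl39l) or from heart and skeletal muscle (Rpl3l), were lowest. The summed FPKM of the members made up 6.82% ± 1.26 of all FPKM in KO, 3.01% ± 0.113 in Gr_1 and 7.61% ± 0.608 in fl (SD, n = 3 each). Each Gr_1 library, between 2.91% and 3.13%, lay below every KO library (5.53% to 8.04%) and every fl library (7.02% to 8.24%), while the KO and fl ranges overlapped. All FPKM summed to a mean of 355856 in KO, 482567 in Gr_1 and 362779 in fl, so the denominator of this share was larger in Gr_1. Of the recovered fragments, members made up 4.31% ± 0.779 in KO, 2.03% ± 0.0873 in Gr_1 and 4.73% ± 0.437 in fl. In bulk RNA, fewer cells of a type and less RNA per cell cannot be told apart.

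Libraries of one group also differed from each other in the same direction for most members. KO A held the lowest of the 3 KO values for 78 of 84 members and KO B the highest for 75. In fl, fl C was highest for 69 and fl A lowest for 70, and in Gr_1, Gr_1 A was highest for 64 and Gr_1 C lowest for 63. Set against the mean of the fl libraries, the median member stood at -0.41, 0.02 and -0.16 on the log2 scale in KO A, B and C, and at -0.85, -0.91 and -1.02 in Gr_1 A, B and C. For fl A, B and C themselves it stood at -0.13, -0.04 and 0.17.

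**Figure D1:**
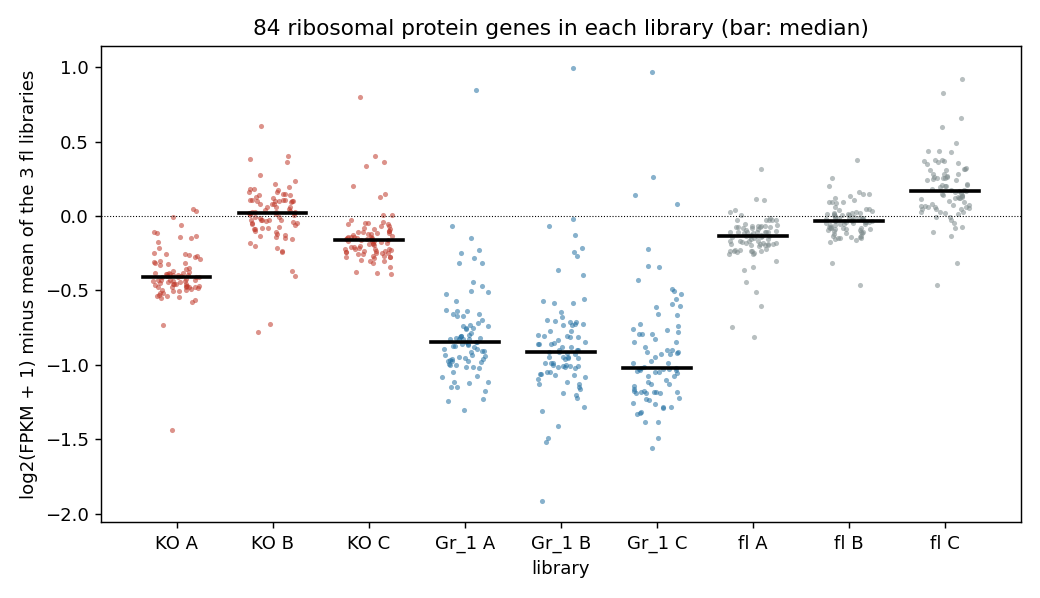
Each point is 1 of the 84 tested members in 1 library, as log2(FPKM + 1) minus that member's mean over the 3 fl libraries; bars mark the median. The 3 Gr_1 medians, at -0.85, -0.91 and -1.02, sit below all KO and fl medians, and KO A (-0.41) and KO B (0.02) stand apart from each other.

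Set against fl, nearly every ribosomal protein mRNA was lower in Gr_1. limma, fitted on log2(FPKM + 1) over all tested genes with Benjamini-Hochberg adjustment, called 77 of 84 members lower and 1 higher at an adjusted p under 0.05, where 31.4% of all tested genes were called lower and 30.0% higher. In 77 of 84 members all 3 Gr_1 libraries lay below all 3 fl libraries, against 34.8% of all tested genes. The median log2 change was -0.93 over the tested members and -0.03 over all tested genes. The quartiles of the members were -1.04 and -0.73, against -0.39 and 0.42 for all tested genes, and 30 members passed a log2 change of -1. Of the small subunit members 28 of 31 were called lower, with a median of -0.97, and of the large subunit members 41 of 43, with a median of -0.95. Rescaling each library to the same sum of FPKM moved the median of all tested genes to -0.36 and that of the members to -1.34, and left 22.2% of all calls higher in place of 48.8%; relative to all genes the members then stood at -0.98, against -0.90 as deposited.

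Among small subunit members, Rpsa, also known as a laminin receptor, had 366, 507 and 436 FPKM in KO A, B and C, 226, 221 and 192 FPKM in Gr_1 A, B and C, and 449, 468 and 523 FPKM in fl A, B and C. All 3 Gr_1 values lay below all other libraries, and the KO and fl ranges overlapped (log2 change -1.17 ± 0.13, adjusted p = 7.35e-05 for Gr_1 against fl, mean FPKM 2.26 times as high in fl). Rps19, which is the gene most often mutated in human Diamond-Blackfan anaemia, had 108, 148 and 128 FPKM in KO A, B and C, 72.7, 71.6 and 63.6 FPKM in Gr_1 A, B and C, and 138, 149.9 and 166 FPKM in fl A, B and C. Gr_1 was again apart from both other groups (log2 change -1.12 ± 0.12, adjusted p = 7.33e-05). Rps6, the substrate of the S6 kinases, averaged 307 ± 13.7 FPKM in Gr_1 and 602 ± 30.1 FPKM in fl (SD, n = 3 each; log2 change -0.97 ± 0.14, adjusted p = 0.000313). Rps3, at the mRNA entry channel, averaged 143 ± 6.64 FPKM in Gr_1 and 257 ± 35.3 FPKM in fl (log2 change -0.84 ± 0.13, adjusted p = 0.000648). Rps14, whose loss is part of the human 5q- syndrome, had a log2 change of -0.69 ± 0.13 (adjusted p = 0.00129).

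The largest falls of the small subunit were those of Rps28, Rps18 and Rps29, and 1 fl library stood high in Rps28 and Rps29. Rps18 (chr17:33951999-33956001, minus strand) had 131, 127 and 113 FPKM in Gr_1 A, B and C, against 253, 283 and 368 FPKM in fl A, B and C, with no overlap (log2 change -1.26 ± 0.16, adjusted p = 0.000190). For Rps28 the values were 75.1, 69.7 and 71.2 FPKM in Gr_1 A, B and C, against 131, 169 and 295 FPKM in fl A, B and C (log2 change -1.37 ± 0.25, adjusted p = 0.00145). Without fl C its log2 change was -1.04. Rps29 had 300.0, 288 and 326 FPKM in Gr_1 A, B and C, against 468, 573 and 1353 FPKM in fl A, B and C (log2 change -1.23 ± 0.33, adjusted p = 0.00988), and without fl C its log2 change was -0.77 with an adjusted p of 0.000555. Each remained lower in all 3 Gr_1 libraries than in any fl library. Rps27a, which is made as a fusion with ubiquitin, had 182, 67.3 and 67.2 FPKM in Gr_1 A, B and C, against 238, 211 and 138 FPKM in fl A, B and C; here Gr_1 A overlapped the fl range and the call (log2 change -1.02 ± 0.38, adjusted p = 0.0427) was lost without Gr_1 B, Gr_1 C, fl A, fl B or KO C, with adjusted p from 0.0590 to 0.143. It was also lost with no filter on low values and with only the 2 groups in the fit.

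The P-stalk and the large subunit follow. Rplp0, the scaffold of the stalk, had 727, 1016 and 926 FPKM in KO A, B and C, 528, 510.1 and 463 FPKM in Gr_1 A, B and C, and 953, 993 and 1252 FPKM in fl A, B and C. Every Gr_1 value lay under every other one (log2 change -1.08 ± 0.15, adjusted p = 0.000279). Rplp1 and Rplp2, which sit on Rplp0 as dimers, changed by -0.93 ± 0.13 and -1.04 ± 0.14 on the log2 scale (adjusted p = 0.000292 and 0.000261). Rpl5 and Rpl11 bind 5S rRNA and, when not built into ribosomes, the p53 ligase Mdm2. Rpl5 averaged 81.8 ± 4.68 FPKM in Gr_1 and 159 ± 7.05 FPKM in fl (log2 change -0.95 ± 0.11, adjusted p = 8.75e-05). Rpl11 averaged 118 ± 4.95 FPKM in Gr_1 and 208 ± 32.9 FPKM in fl (log2 change -0.80 ± 0.13, adjusted p = 0.000773). For Rpl23, another Mdm2 partner, the log2 change was -0.79 ± 0.10 (adjusted p = 0.000234).

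Among the other large subunit members, Rpl3, which reaches towards the peptidyl transferase centre, averaged 119 ± 9.94 FPKM in Gr_1 and 259.7 ± 30.0 FPKM in fl (log2 change -1.12 ± 0.15, adjusted p = 0.000252). For Rpl10, which joins the large subunit late in its assembly, the means were 227 and 454 FPKM in Gr_1 and fl (log2 change -0.99 ± 0.11, adjusted p = 7.52e-05). Rpl39, a small protein in the wall of the exit tunnel, averaged 105 ± 3.22 FPKM in Gr_1 and 215 ± 50.6 FPKM in fl (log2 change -1.01 ± 0.17, adjusted p = 0.000808). Rpl41, the shortest ribosomal protein, changed by -0.87 ± 0.19 on the log2 scale (adjusted p = 0.00341). Rpl36a, on the X chromosome, changed by -1.20 ± 0.17 (adjusted p = 0.000324), and Rpl13a, known in human cells also for its part in silencing inflammatory mRNAs, by -0.44 ± 0.07 (adjusted p = 0.000843). Rpl13a was also low for a subunit gene, at 7.17 FPKM in Gr_1 and 10.1 FPKM in fl, and 35.4% of its exon bases overlap other annotated genes.

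The largest fall of any member was that of Rpl17, and it was uneven. Rpl17 had 117, 65.1 and 83.3 FPKM in Gr_1 A, B and C, against 147, 296 and 349 FPKM in fl A, B and C, a log2 change of -1.52 ± 0.37 (adjusted p = 0.00673). The fl values were spread widely, with fl A lowest and fl C highest, and none reached down to a Gr_1 value. When the fragments of its 11 annotated -ps copies were added to its own, the log2 change was -0.85 (adjusted p = 0.000931). Rpl35 had 96.6, 92.9 and 90.5 FPKM in Gr_1 A, B and C, against 184, 208 and 309 FPKM in fl A, B and C, with no overlap (log2 change -1.28 ± 0.19, adjusted p = 0.000480). Of its exon bases, 66.2% are shared with exons of Arpc5l and Wdr38. Rpl7a and Rpl37, both of the large subunit, moved with fl C. Rpl7a changed by -1.21 ± 0.32 (adjusted p = 0.00976), and by -0.80 without fl C (adjusted p = 0.00715). Rpl37 changed by -0.52 ± 0.16 (adjusted p = 0.0183), and by -0.33 without fl C (adjusted p = 0.0258). Without Gr_1 B, Rpl37 was no longer called (adjusted p = 0.0549).

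**Figure D2:**
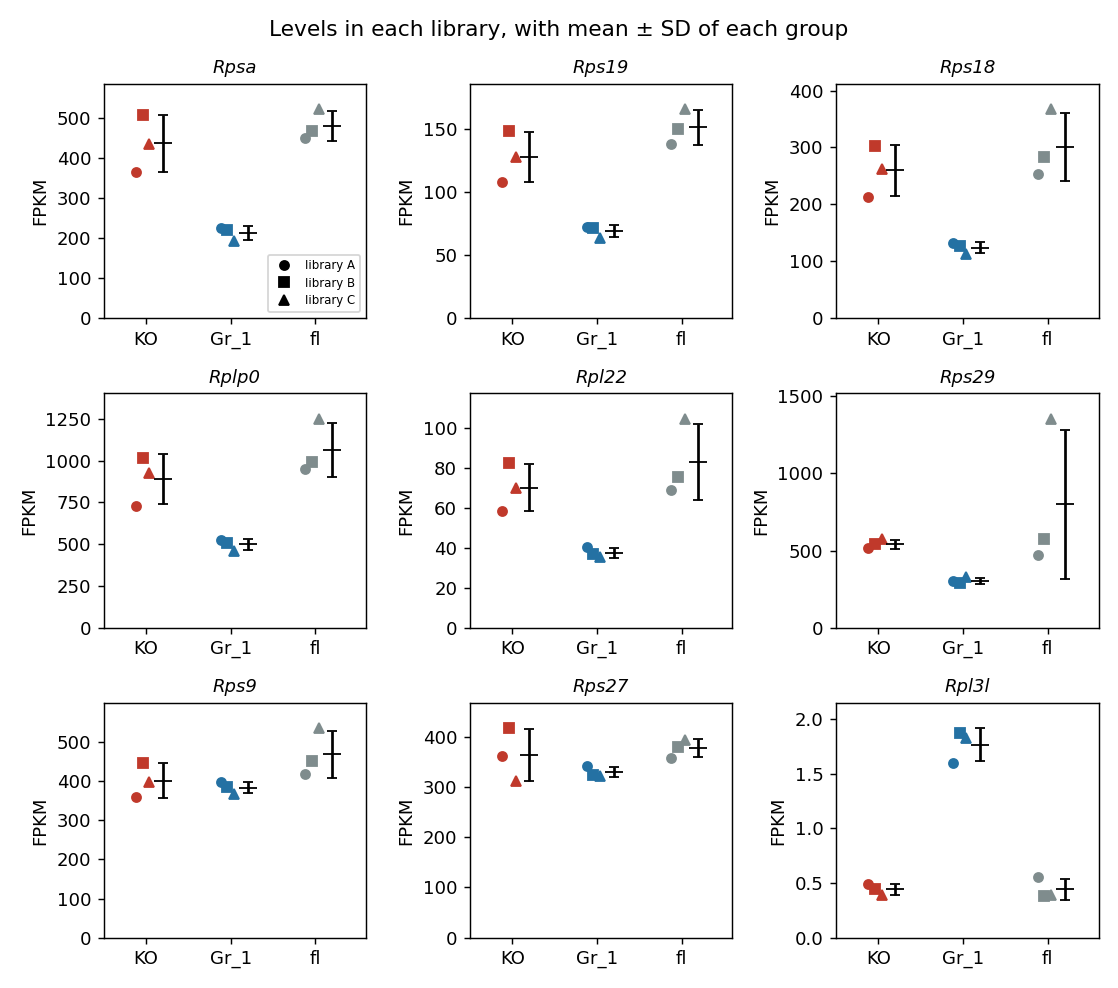
FPKM of 9 members in each library (circle A, square B, triangle C) for KO, Gr_1 and fl, with mean ± SD at the right of each group. Rpsa, Rps19, Rps18, Rplp0, Rpl22 and Rps29 are lowest in all 3 Gr_1 libraries, fl C of Rps29 stands alone at 1353 FPKM, Rps9 and Rps27 were not called in Gr_1 against fl, and Rpl3l is highest in Gr_1.

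Of the subunit members, 5 were not called in Gr_1 against fl: Rps9, Rps27, Rps10, Rpl21 and Rpl24. Rps9, which helps keep decoding accurate, had 358, 447 and 398 FPKM in KO A, B and C, 397, 386 and 368 FPKM in Gr_1 A, B and C, and 417, 452 and 534 FPKM in fl A, B and C. Gr_1 lay just under fl without overlap, and inside the KO range (log2 change -0.28 ± 0.11, adjusted p = 0.0588; 95% interval -0.54 to -0.02). For Rps27, a zinc finger protein of the small subunit, the levels were 362, 416 and 312 FPKM in KO A, B and C, 341, 325 and 323 FPKM in Gr_1 A, B and C, and 358, 380.0 and 394 FPKM in fl A, B and C (log2 change -0.20 ± 0.10, adjusted p = 0.135; 95% interval -0.43 to 0.04). Both intervals lay above the members' median of -0.93. The scaling mattered for these 2 genes: rescaled to equal sums of FPKM, both were called lower. Over the 20 alternatives the adjusted p of Rps9 ran from 0.000407 to 0.153 and that of Rps27 from 0.000837 to 0.253.

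Rps10 and Rpl24 were almost absent from the table, at means of 1.22 and 1.38 FPKM over the 9 libraries. Rps10 averaged 1.10 ± 0.264 FPKM in Gr_1 and 1.20 ± 0.0564 FPKM in fl, and Rpl24 1.26 ± 0.305 FPKM in Gr_1 and 1.34 ± 0.213 FPKM in fl (SD, n = 3 each). Exon bases of Rps10 overlap RPS10-NUDT3 and Gm15420 over 28.7% of their length, and those of Rpl24 overlap Gm28037 over 47.0%. Of the 125-base words of the main transcript, the length of the shorter read, 46.0% of Rps10 and 78.3% of Rpl24 also occur in other annotated genes. With the fragments of its 4 -ps copies added, Rps10 was called lower in Gr_1 (log2 change -1.06, adjusted p = 0.00561), as was Rpl21 with its 15 copies (-0.55, adjusted p = 0.0165). How reads with several matches were counted bears on the levels of these members and of Rps27 and Rps27rt, and the sources used here do not give it.

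Shared sequence was common among members. Under 25% of the words were shared in 39 of 86 members, 25% to 75% in 32 and over 75% in 15. Across the 84 tested members, Spearman's rho of mean FPKM with the shared percentage was -0.100, and with exon length -0.474, as a description of genes that share libraries. FPKM is itself divided by exon length, so a negative rho with that length is partly built in. Called lower in Gr_1 were 34 of 37 tested members with under 25% shared, 31 of 32 in between and 12 of 15 with over 75%, with medians of -0.88, -0.96 and -0.97. The table also held 300 Rpl and Rps copies named -ps. Their summed level was 2509 to 3555 FPKM in KO, 1902 to 2094 FPKM in Gr_1 and 2997 to 3197 FPKM in fl, lowest in Gr_1.

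**Figure D3:**
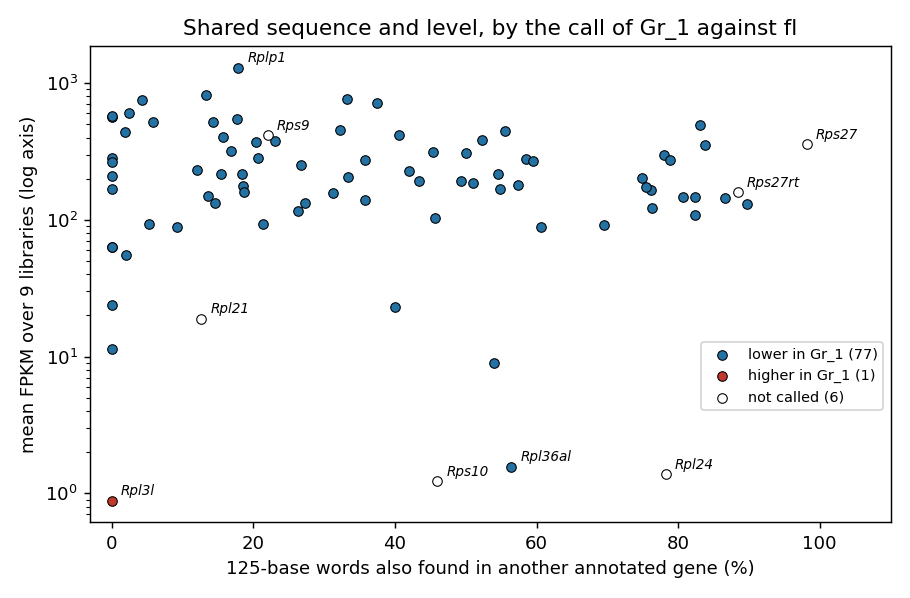
Mean FPKM over 9 libraries (log axis) of the 84 tested members against the percentage of 125-base words of the main transcript found in another annotated gene, coloured by the call of Gr_1 against fl. The 77 members called lower run from 0 to 89.7% of shared words, and Rps10, Rpl24, Rpl36al and Rpl3l lie under 2 FPKM.

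The near copies did not follow as one. Rpl3l, the muscle counterpart of Rpl3, was the only member called higher in Gr_1, with 0.490, 0.448 and 0.392 FPKM in KO A, B and C, 1.59, 1.88 and 1.82 FPKM in Gr_1 A, B and C, and 0.553, 0.381 and 0.395 FPKM in fl A, B and C (log2 change 0.94 ± 0.10, adjusted p = 6.42e-05). It passed the filter through the Gr_1 libraries alone, so a difference was built into its being tested, and its level stayed under 2 FPKM. Rpl22, a large subunit protein needed for T cell development in mice, had 58.2, 82.2 and 69.7 FPKM in KO A, B and C, 40.2, 36.7 and 35.3 FPKM in Gr_1 A, B and C, and 68.6, 75.4 and 104 FPKM in fl A, B and C. Its near copy Rpl22l1 averaged 18.6 ± 2.42 FPKM in Gr_1 and 25.5 ± 4.83 FPKM in fl, with a log2 change of -0.43 ± 0.15 (adjusted p = 0.0323), beside -1.10 ± 0.17 for Rpl22 (adjusted p = 0.000469). The difference between the 2 genes was not tested. Rpl22l1 was no longer called without Gr_1 A, Gr_1 C, or either of fl A and fl B, at an adjusted p between 0.0767 and 0.111.

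Rps27l, a p53 target, averaged 45.2 ± 4.61 FPKM in Gr_1 and 78.3 ± 10.5 FPKM in fl (log2 change -0.78 ± 0.11, adjusted p = 0.000289). Rps27rt was uneven within groups, with 139, 99.2 and 299 FPKM in KO A, B and C, 94.9, 81.4 and 206 FPKM in Gr_1 A, B and C, and 152, 188 and 177 FPKM in fl A, B and C (log2 change -0.55 ± 0.43, adjusted p = 0.291). KO C and Gr_1 C stood above the other libraries of their groups. Rpl36al, the near copy of Rpl36a, averaged 0.960 FPKM in Gr_1 and 2.06 FPKM in fl (log2 change -0.63 ± 0.16, adjusted p = 0.00744). Rpl36al reached 1 FPKM in 3 KO, 3 fl and 1 Gr_1 libraries. It thus passed the filter mainly through the groups where it is higher, which bears on both comparisons with Gr_1. Rpl7l1, a protein of large subunit assembly, and Rps19bp1, which binds Rps19, changed by -0.39 ± 0.08 and -0.54 ± 0.11 (adjusted p = 0.00270 and 0.00239). Of the untested members, Rpl10l had 0 fragments in every library, which allows up to 3 fragments or between 0.133 and 0.183 FPKM, for counting error only. Rpl39l averaged 0.167 FPKM.

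Against fl, no ribosomal protein gene was called in the libraries labelled KO. limma called 0 of 84 members higher and 0 lower, where 4.48% of all tested genes were called higher and 6.52% lower. With no adjustment, 9 members had a p under 0.05 and a negative change, and 0 a positive one. By voom on the recovered fragments 0 were called, and 11 had an unadjusted p under 0.05 and a negative change. The fitted change was negative for 78 of 84 members, with a median of -0.18 against -0.01 for all tested genes. All 3 KO libraries lay below all 3 fl libraries in 6 members, against 17.9% of all tested genes. For 80 members the 95% interval stayed above a log2 change of -1.

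That median moved with single libraries. It was -0.07 without KO A, -0.29 without KO B, -0.19 without KO C, -0.26 without fl A, -0.20 without fl B and -0.08 without fl C. Only without KO B were members called, 5 in all and lower: Rpl34, Rps15a, Rpl10, Rps26 and Rpl31, with log2 changes between -0.37 and -0.29. Quantile normalization brought the median to -0.05, and leaving the 10 most abundant genes out of the scaling brought it to -0.09, while the share of all calls that were higher became 58.5% in place of 40.8%. Rpl34, with the smallest adjusted p, had 146, 170.1 and 149 FPKM in KO A, B and C, against 178, 177 and 189 FPKM in fl A, B and C (log2 change -0.23 ± 0.07, adjusted p = 0.0930). The mean of Rplp0 was 890.0 ± 148 FPKM in KO and 1066 ± 162 FPKM in fl (log2 change -0.26 ± 0.15, adjusted p = 0.304). Rpsa changed by -0.15 (95% interval -0.44 to 0.14), Rps19 by -0.25 (95% interval -0.52 to 0.03) and Rps6 by -0.08 (95% interval -0.39 to 0.23). Rps27a had the largest positive change (0.33 ± 0.38, adjusted p = 0.631) and Rpl17 the largest negative one (-0.85 ± 0.37, adjusted p = 0.189). The value of Rpl17 was -0.21 with its -ps copies added and -0.55 without KO A; with copies added, Rps10 had the largest negative change, at -0.45 (adjusted p = 0.293).

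**Figure D4:**
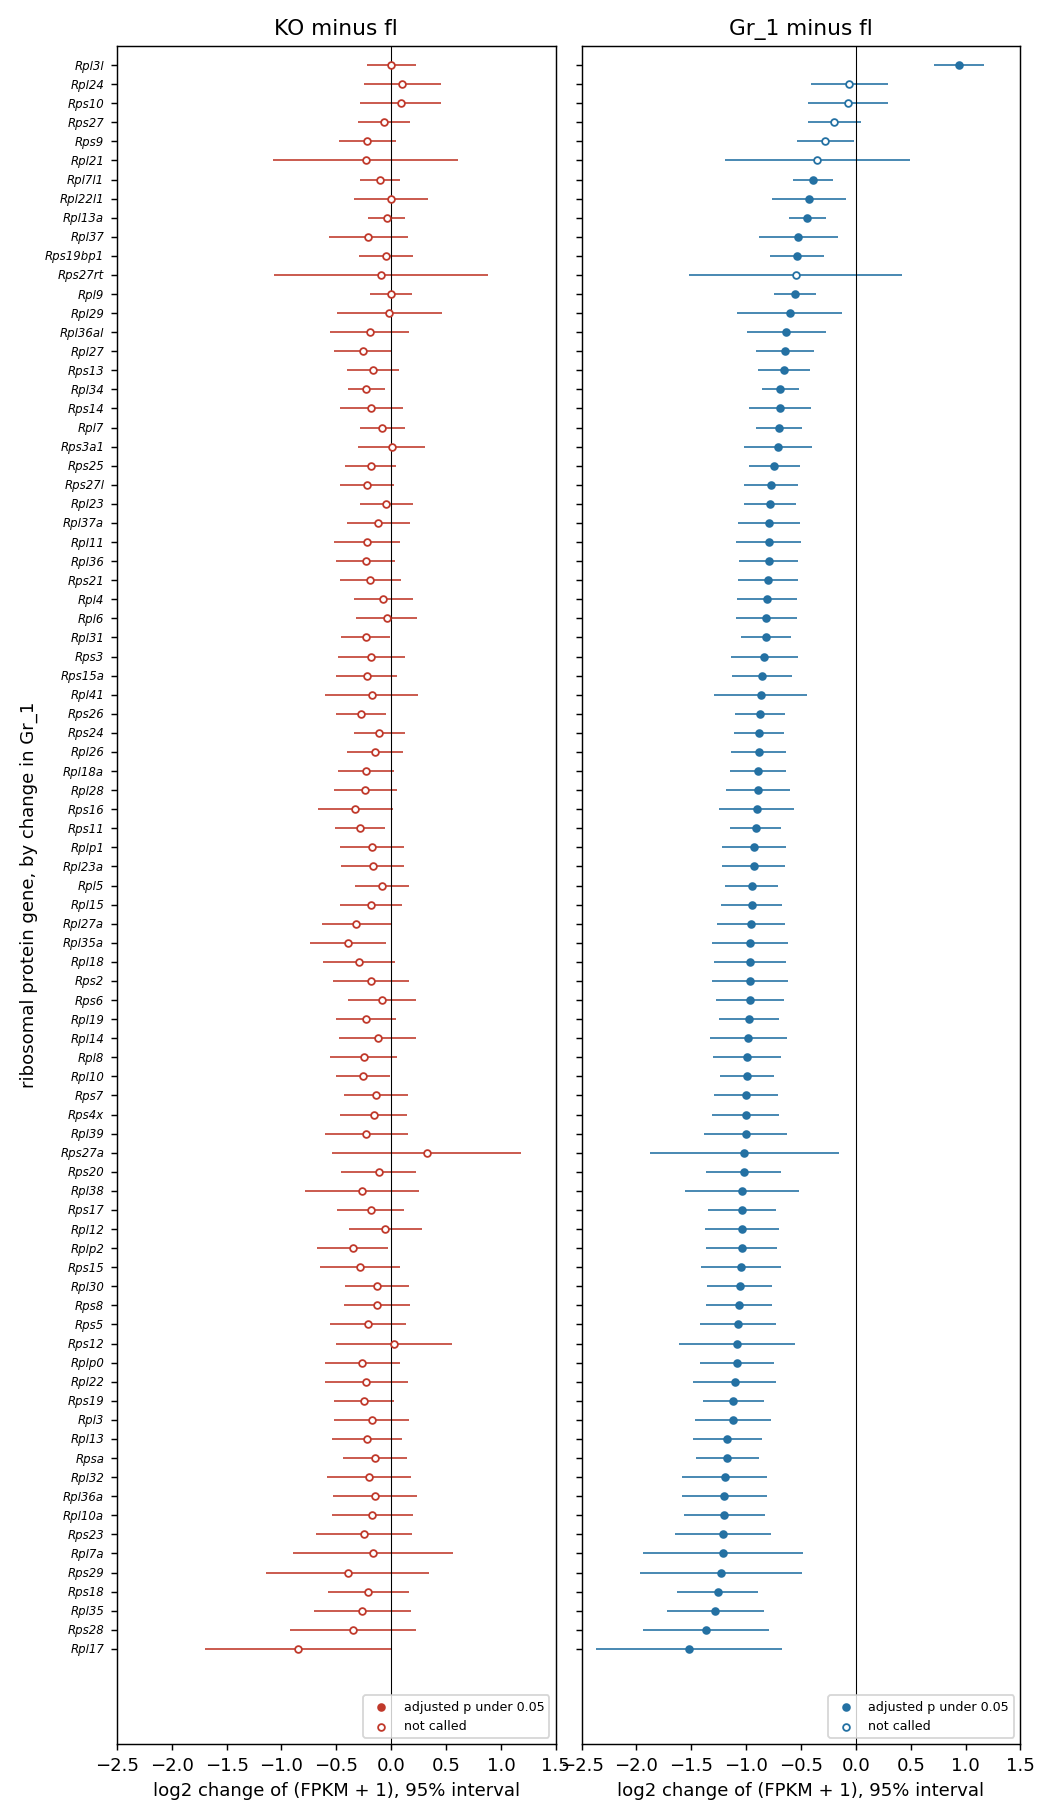
Fitted log2 change of log2(FPKM + 1) with its 95% interval for the 84 tested members in KO minus fl (left) and Gr_1 minus fl (right), ordered by the change in Gr_1; filled points have an adjusted p under 0.05. No point is filled on the left, and 78 are filled on the right, of which Rpl3l at the top is higher.

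Set against Gr_1, nearly all members were higher in the libraries labelled KO. limma called 74 of 84 members higher and 1, Rpl3l, lower, against 26.7% of all tested genes higher and 28.9% lower. Rpl3l was tested only through the Gr_1 libraries, where it is high. All 3 KO libraries lay above all 3 Gr_1 libraries in 76 of 84 members, against 33.6% of all tested genes. The median log2 change was 0.74 over the tested members and 0.01 over all tested genes. Without KO C, 69 members were called higher and 1 lower, with a median of 0.73. This comparison shares libraries with both others, so its values stand beside theirs and not as a separate line of support. Rescaled to equal sums of FPKM, the median of all tested genes was 0.36 and that of the members 1.18, and the share of all calls that were higher became 80.9% in place of 48.0%; without the 10 most abundant genes in the scaling it became 65.6%.

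The largest rises were those of Rps27a, Rps12, Rps18, Rpl36a and Rpl7a. Rps12, a small subunit protein, had 121, 229.8 and 199.5 FPKM in KO A, B and C, against 86.5, 82.6 and 76.0 FPKM in Gr_1 A, B and C (log2 change 1.11 ± 0.23, adjusted p = 0.00356). Rps18 changed by 1.05 ± 0.16 (adjusted p = 0.000720) and Rpl36a by 1.05 ± 0.17 (adjusted p = 0.000917). Rps27a changed by 1.34 ± 0.38 (adjusted p = 0.0151), a call lost without KO B, Gr_1 B or Gr_1 C. For Rpl7a the change was 1.05 ± 0.32 (adjusted p = 0.0215), lost without KO B, Gr_1 B or Gr_1 C. The P-stalk genes Rplp0, Rplp1 and Rplp2 rose by 0.82, 0.75 and 0.69 on the log2 scale (adjusted p = 0.00174, 0.00124 and 0.00328). Without KO C these 8 genes were still called, with log2 changes between 0.69 (Rplp2) and 1.34 (Rps27a). Rpl29 and Rpl36al were called higher too, but without KO B their log2 changes were 0.39 and 0.28 and neither was called (adjusted p = 0.131 and 0.137). Rpl29 lost the call in 6 of 20 alternatives and Rpl36al in 9 of 19, without KO C and with no filter on low values among them. Rps9 had a change of 0.06 ± 0.11 and Rps27 of 0.13 ± 0.10 (adjusted p = 0.674 and 0.306).

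Markers of cell state moved with the groups. Of 8 early granulocyte genes, such as the azurophil granule genes Mpo and Elane, 7 were called lower in Gr_1 than in fl, where 31.4% of all tested genes were lower and 30.0% higher. Their summed level was 3667 to 7144 FPKM in KO, 646 to 757 FPKM in Gr_1 and 4317 to 6299 FPKM in fl. It was lowest in KO A and highest in KO B within KO, and lowest in fl A and highest in fl C within fl. Within Gr_1 it was lowest in Gr_1 A and highest in Gr_1 B, whereas most members were highest in Gr_1 A. Of 16 late neutrophil genes, 15 were called higher in Gr_1 than in fl, and they summed to 70465 to 101427 FPKM in KO, 171990 to 174957 FPKM in Gr_1 and 64367 to 71654 FPKM in fl. Of 15 cell cycle genes, 12 were called lower in Gr_1, with sums of 912 to 1016 FPKM in KO, 593 to 682 FPKM in Gr_1 and 950.1 to 993 FPKM in fl. Here KO B, Gr_1 A and fl A were the highest libraries of their groups. All 10 B cell genes were called higher in Gr_1, with sums of 45.2 to 93.3 FPKM in KO, 374 to 406 FPKM in Gr_1 and 79.0 to 101 FPKM in fl. Eosinophil genes were called lower in 4 of 6, with sums of 5018 to 9911 FPKM in KO, 1486 to 1898 FPKM in Gr_1 and 4574 to 9499 FPKM in fl, and KO B, Gr_1 B and fl C were the highest libraries of their groups. NK cell genes were called lower in 4 of 6 tested, with 132 to 253 FPKM in KO, 15.7 to 21.6 FPKM in Gr_1 and 139 to 202 FPKM in fl, highest in KO B, Gr_1 C and fl C. Monocyte and macrophage genes were called lower in 11 of 14 and higher in 3, with 807 to 849 FPKM in KO, 547 to 604 FPKM in Gr_1 and 1241 to 1388 FPKM in fl. Erythroid genes were called higher in 7 of 8 tested, with 84.0 to 94.4 FPKM in KO, 60.4 to 173 FPKM in Gr_1 and 20.8 to 57.1 FPKM in fl. The B cell, monocyte and erythroid sums were highest in KO A and Gr_1 A within those groups. Within fl, the B cell sum was highest in fl C and the monocyte and erythroid sums in fl B. Of the remaining lists, T cell genes were called higher in 2 of 5 tested, mast cell and basophil genes lower in 1 of 6, and progenitor genes higher in 2 and lower in 2 of 7.

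Marker lists also differed between the libraries labelled KO and fl, where 4.48% of all tested genes were called higher and 6.52% lower. Late neutrophil genes were called higher in 10 of 16 (8 without KO C), and monocyte and macrophage genes lower in 10 of 14 (7 without KO C). All 6 mast cell and basophil genes were called higher, with sums of 335 to 457 FPKM in KO and 90.1 to 205 FPKM in fl, but 2 of 6 without KO C. T cell genes were called higher in 5 of 5 tested, with 18.8 to 26.6 FPKM in KO and 4.03 to 6.46 FPKM in fl (4 without KO C), and NK cell genes in 4 of 6 (1 without KO C). Only 5 of the 10 listed T cell genes passed the filter. The fl sums are too low for all 5 to reach 1 FPKM in each fl library, so this share is shaped by the filter. Under the 11 other choices, between 1 and 8 T cell genes were called higher. For eosinophil, erythroid and progenitor genes, 1, 2 and 2 were called higher (0, 0 and 1 without KO C). limma called 0 early granulocyte, B cell or cell cycle genes in either direction, with or without KO C (1 lower and 0 higher with an unadjusted p under 0.05). No gene of these lists was at 0 in all libraries. Their part in the members' levels was not tested.

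Other genes of the translation apparatus changed in both directions. Of the other ribosome components, Rack1, a scaffold on the small subunit, had 121, 168 and 147 FPKM in KO A, B and C, 81.9, 79.4 and 71.2 FPKM in Gr_1 A, B and C, and 149, 156 and 199 FPKM in fl A, B and C (log2 change -1.10 ± 0.14, adjusted p = 0.000199 for Gr_1 against fl). Fau, whose product holds the small subunit protein eS30, was lower in both KO and Gr_1 than in fl, at 871 ± 8.75 FPKM in KO, 862 ± 24.4 FPKM in Gr_1 and 1105 ± 112 FPKM in fl (log2 change -0.34 ± 0.09, adjusted p = 0.0475 for KO against fl; log2 change -0.35 ± 0.09, adjusted p = 0.00843 for Gr_1 against fl). For KO against fl, Fau was no longer called without any 1 of the 9 libraries (adjusted p from 0.0613 to 0.145). Over the 77 tested of 78 mitochondrial ribosomal protein genes, 60 were called lower and 1 higher in Gr_1 than in fl, where 31.4% and 30.0% of all tested genes were, with a median of -0.43. Mrpl4 averaged 9.78 ± 0.195 FPKM in Gr_1 and 15.5 ± 0.836 FPKM in fl (log2 change -0.62 ± 0.06, adjusted p = 3.37e-05), and Mrpl33 was the one that rose (log2 change 0.63 ± 0.17, adjusted p = 0.00971). In KO against fl, 5 of 77 were called lower (3 without KO C), a share near the 6.52% of all tested genes, and 0 higher (median -0.15). At an unadjusted p under 0.05 by limma, 17 were lower and 0 higher, where 1816 of all 12289 tested genes were lower. The change was negative for 71 of 77. In 28 of 77 all 3 KO libraries lay below all 3 fl libraries, against 17.9% of all tested genes. Mrpl52 was at 12.2 ± 0.186 FPKM in KO and 19.7 ± 2.12 FPKM in fl (log2 change -0.64 ± 0.09, adjusted p = 0.00371). Mrpl4 was at 11.7 ± 0.180 FPKM in KO and 15.5 ± 0.836 FPKM in fl (log2 change -0.37 ± 0.06, adjusted p = 0.00497).

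**Figure D5:**
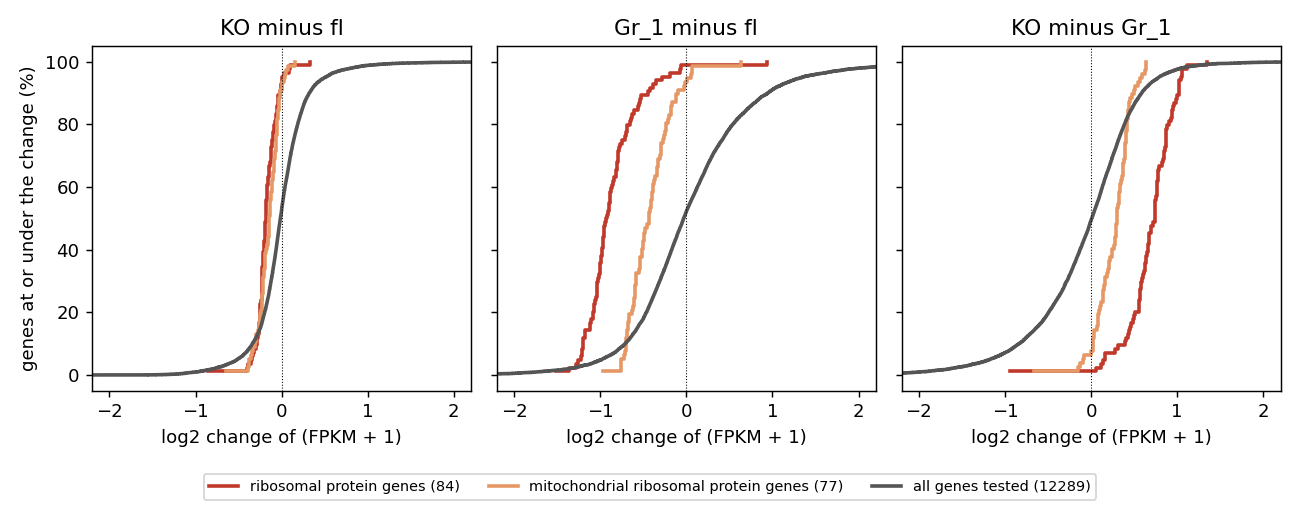
Cumulative percentage of genes at or under a given log2 change for the 84 ribosomal protein genes, the 77 mitochondrial ribosomal protein genes and all 12289 tested genes in each comparison. In Gr_1 minus fl the medians are -0.93, -0.43 and -0.03, and in KO minus fl they are -0.18, -0.15 and -0.01.

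In Gr_1 against fl, 46 of 70 genes of pre-rRNA processing and subunit assembly were called lower and 3 higher (median -0.36), beside 31.4% and 30.0% of all tested genes. Noc2l, of large subunit assembly, and Wdr3, of the small subunit processome, changed by -0.73 ± 0.09 and -0.69 ± 0.09 (adjusted p = 0.000154 and 0.000163). Of 20 genes of RNA polymerase I and rDNA transcription, 11 were called lower and 2 higher (between 10 and 17 lower over the alternatives). The largest subunit of the enzyme, Polr1a, was one of the 2 that rose, at 10.9 ± 0.289 FPKM in Gr_1 and 2.93 ± 0.217 FPKM in fl (log2 change 1.60 ± 0.07, adjusted p = 1.37e-06), while its partner subunit Cd3eap fell (log2 change -0.99 ± 0.12, adjusted p = 0.000128). In KO against fl, where 4.48% of all tested genes were higher and 6.52% lower, these 2 lists together had 1 gene higher, Polr1a (log2 change 0.33 ± 0.07, adjusted p = 0.0212), and 3 lower, Wdr3 (log2 change -0.39 ± 0.09, adjusted p = 0.0223), Bysl (log2 change -0.29 ± 0.07, adjusted p = 0.0389) and Polr2e (log2 change -0.41 ± 0.07, adjusted p = 0.00779). Without KO C, 1 was higher and 1 lower. Polr1a was no longer called without KO A, KO B or either of the fl libraries A and B (highest adjusted p 0.0798), and Wdr3 without KO A, KO B, KO C or fl B (up to 0.0742). Bysl was called only without Gr_1 C, with an adjusted p up to 0.132 otherwise.

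Among translation factors, 25 of 34 initiation factor genes were called lower in Gr_1 than in fl and 5 higher (median -0.43), beside 31.4% and 30.0% of all tested genes; with libraries rescaled to equal sums of FPKM, 0 were higher. Eif3h fell to 99.5 ± 5.42 FPKM in Gr_1, against 175 ± 15.9 FPKM in fl (log2 change -0.81 ± 0.09, adjusted p = 6.64e-05). Eif1 and Eif5, which control start codon choice, rose by 0.55 ± 0.07 and 0.74 ± 0.11 (adjusted p = 0.000187 and 0.000438). Of 18 elongation factors and other mRNAs with a known TOP tract, 14 were called lower and 0 higher (median -0.65; 0 higher also with an unadjusted p under 0.05 by limma), with Naca at 22.6 ± 0.329 FPKM in Gr_1 and 39.5 ± 1.18 FPKM in fl (log2 change -0.78 ± 0.07, adjusted p = 3.44e-05). limma called 0 genes of either list in KO against fl, with or without KO C; with an unadjusted p under 0.05, 5 initiation factor genes were lower and 1 higher, and 3 genes of the other list were lower and 0 higher.

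Of 24 tested regulators of TOP mRNAs and ribosome genes, 12 were called higher and 3 lower in Gr_1 than in fl, beside 30.0% and 31.4% of all tested genes. Rescaled to equal sums of FPKM, 3 were higher and 11 lower. Mxd1, a partner of Max that represses Myc targets, was at 59.7 ± 16.0 FPKM in KO, 279.6 ± 35.3 FPKM in Gr_1 and 29.3 ± 3.62 FPKM in fl, higher in both KO (log2 change 0.97 ± 0.19, adjusted p = 0.0123) and Gr_1 (log2 change 3.21 ± 0.19, adjusted p = 3.27e-06) than in fl. The call of Mxd1 in KO against fl did not hold without KO C or fl B (adjusted p up to 0.0527). Mnt, another repressor that pairs with Max, was called lower in KO than in fl (log2 change -0.34 ± 0.09, adjusted p = 0.0489), and in no fit that left out 1 library (adjusted p from 0.0511 to 0.109). Without KO C neither was called, nor any other gene of the list. Max rose with Mxd1 in Gr_1 against fl (log2 change 1.64 ± 0.10, adjusted p = 3.61e-06). Myc averaged 18.8 ± 6.57 FPKM in KO and 9.16 ± 0.133 FPKM in Gr_1 (log2 change 0.91 ± 0.22, adjusted p = 0.00788). Larp1, the TOP mRNA binding protein, fell in Gr_1 (log2 change -0.71 ± 0.08, adjusted p = 9.17e-05). Members with a TOP start by the annotation had a median log2 change of -0.80 (19 of 23 called lower) in Gr_1 against fl, and the other tested members -0.96 (58 of 61).

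Of 19 genes of ribosome stress and quality control, 12 were called lower in Gr_1 than in fl and 2 higher (between 6 and 15 lower over the alternatives; 31.4% and 30.0% of all tested genes), Rnf10 (log2 change 0.94 ± 0.08, adjusted p = 2.20e-05) and Mdm2 (log2 change 0.89 ± 0.08, adjusted p = 3.46e-05). Map3k20, the kinase that senses stalled ribosomes, fell (log2 change -0.95 ± 0.09, adjusted p = 3.18e-05). In KO against fl, 3 of the 19 were called lower (0 without KO C), among them Cdkn1a (log2 change -0.81 ± 0.18, adjusted p = 0.0215) and Habp4 (log2 change -0.45 ± 0.09, adjusted p = 0.0167), and 0 higher (1 higher with an unadjusted p under 0.05 by limma). Cdkn1a was no longer called without KO A, KO C or either of the fl libraries A and B (highest adjusted p 0.0719), nor Habp4 without KO C (adjusted p = 0.0723). Habp4 averaged 0.922 ± 0.0307 FPKM in KO and 1.63 ± 0.0712 FPKM in fl. It passed the filter through the fl libraries alone, so a difference was built into its being tested.

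The genes outside the set whose log2(FPKM + 1) followed the mean of the 77 subunit members most closely over the 9 libraries were Rack1 (Pearson's r = 0.998), Rps16-ps2 (0.997), Zfyve19 (0.995), Eif3l (0.995) and Ptbp1 (0.994), as a description of libraries that differ mainly by group. Rack1 is a ribosome component, Rps16-ps2 a processed copy of Rps16, Eif3l an initiation factor subunit and Ptbp1 a splicing repressor. Their mean FPKM in Gr_1 and fl were 77.5 and 168 for Rack1, 105 and 175 for Rps16-ps2, 5.28 and 6.98 for Zfyve19, 23.5 and 38.4 for Eif3l, and 46.1 and 75.5 for Ptbp1.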

How the data were processed

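RNA of 9 libraries was sequenced as paired reads of 125 or 150 bases, per the labels' protocols. The authors deposited 1 FPKM value per gene and library, per the file headers. DESeq2 1.16.1 and featureCounts 1.5.0-p3 appear among the tools, and GRCm38 and mm10 among the builds, of the submitters' processing notes, which state no use for any of them. No source used here names the aligner. Symbols and coordinates are those of GENCODE M21 on GRCm38 (54495 of 54532 genes matched). FPKM multiplied by exon length and by the recovered denominator of the library gave fragments. Of values under 1000 fragments, 97.2% to 97.5% per library came out whole within 0.02.

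log2(FPKM + 1) of 12289 genes with 1 FPKM or more in at least 3 libraries was fitted with limma 3.58.1 (R 4.3.3, mean-variance trend), all 9 libraries in 1 fit leaving 6 residual degrees of freedom. Two-sided p-values were adjusted by Benjamini-Hochberg over all genes tested. The ± beside a log2 change is its standard error, and beside a level the SD of 3 libraries. Exact permutation of 3 against 3 libraries cannot go below p = 0.1 and was not used for calls. The fit was also run on simulated counts, drawn independently with the same dispersion for every gene. That simulation had no shift shared by a set of genes in a library, so it does not cover the shifts of most members within groups. The members and lists were chosen with earlier results of these data known. Named members were a fixed list plus the 5 largest called changes in each direction and comparison and the 3 most and least abundant; of each other list, up to 2 called genes per direction with the smallest adjusted p; the members shown by their start, those not called in Gr_1 against fl and those whose call or value moved with 1 library were added after their values were seen. Tables and figures used Python 3.11.15 with pandas 2.3.3 and matplotlib 3.10.9.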

Additional observations from a re-analysis of the deposited data

How the results depend on the processing

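Fitted changes, calls and counts of called genes were recomputed under 20 alternatives: 11 other choices and each of the 9 libraries left out. Levels, shares, correlations, sequence counts and counts split by start or shared sequence were not. Members called in Gr_1 against fl or in KO against Gr_1 kept their direction in every alternative. In Gr_1 against fl, between 74 and 79 members were called lower under the 11 choices and between 74 and 78 without 1 library. In KO against Gr_1, between 70 and 79 were called higher under the choices and between 66 and 76 without 1 library. In KO against fl, 0 were called higher in any alternative, and 0 lower except that leaving out 1 library gave between 0 and 5. The member called higher in Gr_1 against fl, and lower in KO against Gr_1, is Rpl3l. Both counts were 0 with a filter at 5 FPKM and between 0 and 1 without 1 library, because Rpl3l then fails the filter. Rescaled to equal sums of FPKM, 3 genes of the other lists changed direction: Pwp1 to -0.11 and Ttf1 to -0.083 on the log2 scale in Gr_1 against fl, and Eif4g3 to 0.17 in KO against Gr_1; the rescaling itself moves every gene by the same amount in a library. Of members called in Gr_1 against fl and in KO against Gr_1, 4 and 8 lost the call under at least 1 alternative. Of 11 genes named from other lists in KO against fl, 8 lost the call without at least 1 library. The labels do not say whether library letters pair the samples. Correlations of deviations ran from -0.06 to 0.14 for the same letter and from -0.13 to 0.08 for different letters, which neither shows nor excludes pairing. With the letter as a replicate block, 0 members were called lower and 0 higher in KO against fl, 77 lower in Gr_1 against fl and 75 higher in KO against Gr_1, and the count of all calls was 1037, 7280 and 6469, against 1352, 7550 and 6843 without the block. Fitting only the 2 groups compared gave 794 calls over all genes in KO against fl, and leaving out KO C 573. Depth limits only the members near 1 FPKM, where 3 fragments in 1 kilobase are 0.136 to 0.187 FPKM.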
